A study of Mus musculus with 6 samples.

Results

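The cardiac sarcomere genes are 10 genes of the contractile apparatus that switch on in the cardiac crescent, *Actc1*, *Tnni1*, *Myl7*, *Myl2*, *Myl4*, *Myl3*, *Myh6*, *Myh7*, *Ttn* and *Ryr2*. They were chosen by name, out of 19057 genes with a probe, and every probe annotated to one of them was taken. They have 30 probes between them, of which 12 were above the background level of 7.47 on the log2 scale. This level was set so that 95% of 1608 probes for genes such as olfactory receptors lay at or below it, and 9 of the 10 genes had a probe above it.

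RNA came from whole C3H/HeH mouse embryos, aged E8.0 to E8.5 and bred by intercrossing Zic2 iso/+ parents. Illumina Mouse WG6 v2 arrays were used, with 1 array a pool, and a pool held 8 embryos matched for stage. There were 3 pools of Zic2 iso/iso embryos and 3 pools of wildtype (Zic2 +/+) embryos. The iso allele carries a premature stop codon in *Zic2*, which encodes a zinc finger transcription factor, and the homozygous embryos were studied for a failure of left-right patterning. Both genotypes share the strain background, the stated stage range and the way of pooling, and no other allele or agent was used in these pools. The somite counts of each pool are not given. The iso allele arose in another strain and was backcrossed to C3H/HeH for several generations.

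The sarcomere is the repeating unit of striated muscle, in which thick filaments of myosin pull on thin filaments of actin. Each myosin heavy chain binds 1 regulatory and 1 essential light chain, troponin and tropomyosin make the thin filament sensitive to calcium, and titin spans the sarcomere as a molecular spring. In the mouse these genes come on in the cardiac crescent, before and during the formation of the linear heart tube, and the first contractions begin at about the time at which these embryos were collected. Levels of such genes in a whole embryo therefore move with stage, and in bulk RNA fewer heart cells cannot be told apart from less RNA per heart cell.

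Promoters of contractile genes are known for the CArG box, the site of serum response factor, written as CC, then 6 bases that are A or T, then GG. A search of the 250 bases before the start of each RefSeq gene (GRCm38.p6, both strands) found it in 482 of 32817 windows, or 1.47%. All 10 genes matched, with 13 windows in all, and 3 windows held the box, those of *Actc1*, *Myl7* and *Myl3*. These 3 are printed because they show the element that the contractile genes are known for beside genes whose levels follow. Each line gives the 120 bases before the start, 5′ to 3′ on the gene's strand, with the box in capitals. The *Actc1* stretch lies at chr2:114052876-114052995 on the minus strand, that of *Myl7* at chr11:5898783-5898902 on the minus strand and that of *Myl3* at chr9:110763558-110763677 on the plus strand.
Actc1: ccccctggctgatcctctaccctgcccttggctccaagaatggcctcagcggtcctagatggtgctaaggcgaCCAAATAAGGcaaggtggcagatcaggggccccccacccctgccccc
Myl7: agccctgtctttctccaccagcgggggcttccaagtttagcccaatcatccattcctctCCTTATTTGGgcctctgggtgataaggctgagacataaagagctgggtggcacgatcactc
Myl3: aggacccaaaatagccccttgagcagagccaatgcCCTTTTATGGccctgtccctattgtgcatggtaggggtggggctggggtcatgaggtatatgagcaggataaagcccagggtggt
The box of *Myl7* reads as the reverse complement of the box of *Actc1*, and the boxes begin 47 (*Actc1*), 61 (*Myl7*) and 85 (*Myl3*) bases before the start. The MEF2 motif (CTA, then 4 bases of any kind, then TAG) was found in 1 of the 13 windows (*Ttn*), against 3.2% of all windows. A GATA motif (AGATAA or TGATAA) was found in 2 of the 13 windows (*Myl7* and *Myl2*), against 16.6% of all windows, and the short NKX2-5 motif AAGTG in 7 of the 13 (6 genes), against 40.7%. No motif overlapped a CArG box. A match describes the letters only and is not a bound site.

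No cardiac sarcomere gene passed the test between the genotypes. At a Benjamini-Hochberg adjusted p of 0.05 (limma, over all 45281 probes), 0 of 30 member probes were called, where 0.0442% of all probes were (20 probes, 18 lower and 2 higher in Zic2 iso/iso) and 0.172% of genes above background. All 9 genes above background averaged lower in Zic2 iso/iso pools, where 52.5% of all genes above background did. Their median log2 difference was −0.43, beside −0.01 over all 10439 genes above background. At an unadjusted p under 0.05, 4 of the 9 were lower (*Myl4*, *Actc1*, *Myh6* and *Myl7*), where 6.38% of genes above background were lower. Most of the 9 genes moved together across pools and are not independent of each other, so these counts describe the set and carry no test.

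*Actc1* encodes cardiac alpha-actin, the thin filament actin of the heart. On the log2 scale its brightest probe read 11.75, 12.15 and 10.83 in Zic2 iso/iso pools 1, 2 and 3, against 12.36, 11.95 and 12.40 in wildtype pools 1, 2 and 3. The third Zic2 iso/iso pool was far below the other 5 pools, and Zic2 iso/iso pool 2 lay within the wildtype range. The log2 difference was −0.66 ± 0.24 (SE, n = 3 pools each; 95% interval −1.18 to −0.13), with a limma adjusted p of 0.75. In deposited intensity, before normalisation, the probe read 4314, 4502 and 1583 in Zic2 iso/iso pools and 4769, 4117 and 5289 in wildtype pools. A dimmer probe of the same gene also had its lowest value in Zic2 iso/iso pool 3, at 7.52, and a log2 difference of −0.34 ± 0.14 (SE, limma adjusted p = 0.80).

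*Tnni1*, the slow skeletal troponin I, is the troponin I of the embryonic heart and holds the thin filament off until calcium binds. Its level was 8.498, 8.36 and 7.90 in Zic2 iso/iso pools, against 8.55, 8.48 and 8.36 in wildtype pools. Again the third Zic2 iso/iso pool was the lowest, while the other Zic2 iso/iso pools overlapped with wildtype. The log2 difference was −0.21 ± 0.12 (SE, limma adjusted p = 0.90).

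The regulatory light chains wrap the neck of the myosin head and set its activity when phosphorylated. *Myl7*, the atrial form, which early mouse embryos use along the whole heart tube, read 10.91, 10.71 and 9.91 in Zic2 iso/iso pools, against 10.74, 11.17 and 11.22 in wildtype pools. Wildtype pool 1 lay between Zic2 iso/iso pools 1 and 2, so that only Zic2 iso/iso pool 3 stood clearly apart. The log2 difference was −0.53 ± 0.20 (SE, 95% interval −0.97 to −0.09, limma adjusted p = 0.76). *Myl2*, the ventricular form, read 9.38, 9.30 and 8.72 in Zic2 iso/iso pools, against 9.47, 8.95 and 9.72 in wildtype pools. Here wildtype pool 2 was lower than Zic2 iso/iso pools 1 and 2, and the log2 difference of −0.24 ± 0.19 (SE, limma adjusted p = 0.94) was smaller than the SD within either genotype (0.36 in Zic2 iso/iso, 0.39 in wildtype).

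The essential light chains stiffen the same neck of the myosin head. *Myl4*, the atrial and embryonic form, read 12.28, 12.40 and 11.52 in Zic2 iso/iso pools, against 12.68, 12.49 and 12.87 in wildtype pools. It was the only one of the 9 genes with every Zic2 iso/iso pool below every wildtype pool, a pattern that 7.15% of genes above background had, and the gap between Zic2 iso/iso pool 2 and wildtype pool 2 was small. The log2 difference of −0.61 ± 0.18 (SE, 95% interval −0.998 to −0.22) is a level 1.53-fold higher in wildtype. It had the lowest p of the set, 0.0049 unadjusted and 0.61 after adjustment by limma. The other *Myl4* probe was below background, with a log2 difference of −0.06 (limma adjusted p = 0.96). *Myl3*, the ventricular and slow muscle form, read 10.84, 11.01 and 9.94 in Zic2 iso/iso pools, against 11.00, 10.71 and 11.39 in wildtype pools. Its genotypes overlapped, with wildtype pool 2 below both Zic2 iso/iso pools 1 and 2, and the log2 difference was −0.44 ± 0.23 (SE, limma adjusted p = 0.89).

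The myosin heavy chains hold the motor. *Myh6*, the alpha form, read 8.45, 8.56 and 8.05 in Zic2 iso/iso pools, against 9.19, 8.46 and 8.71 in wildtype pools. Wildtype pool 1 was high and Zic2 iso/iso pool 3 was low, and the other 4 pools lay close together. The log2 difference was −0.43 ± 0.16 (SE, 95% interval −0.79 to −0.08, limma adjusted p = 0.75). The other *Myh6* probe was below background, with a log2 difference of −0.002 (limma adjusted p = 0.999). *Myh7*, the beta form that predominates in the ventricle of the mouse embryo, could not be read, since its 3 probes all stayed below background in both Zic2 iso/iso and wildtype pools. Its brightest probe read 7.36, 7.28 and 7.11 in Zic2 iso/iso pools and 7.39, 7.35 and 7.29 in wildtype pools, and a level below background does not show that the gene was silent.

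The largest proteins of the set had dim probes and small differences. *Ttn*, titin, had 12 probes, of which 3 were above background, and the log2 differences of all 12 ran from −0.13 to 0.12. The brightest read 7.75, 7.76 and 7.80 in Zic2 iso/iso pools, against 8.09, 7.64 and 7.77 in wildtype pools, a log2 difference of −0.06 ± 0.10 (SE, limma adjusted p = 0.98). It was the one gene above background in which Zic2 iso/iso pool 3 was not the lowest pool. *Ryr2*, the channel that releases calcium from the sarcoplasmic reticulum to trigger contraction and so a partner of the sarcomere and not a part of it, had 1 probe of 5 above background. It read 7.49, 7.61 and 7.41 in Zic2 iso/iso pools, against 7.67, 7.57 and 7.52 in wildtype pools, and the log2 difference was −0.08 ± 0.07 (SE, limma adjusted p = 0.95). Both genes lay so near the background level that a change in their RNA would be compressed on this scale.

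**Figure D1:**
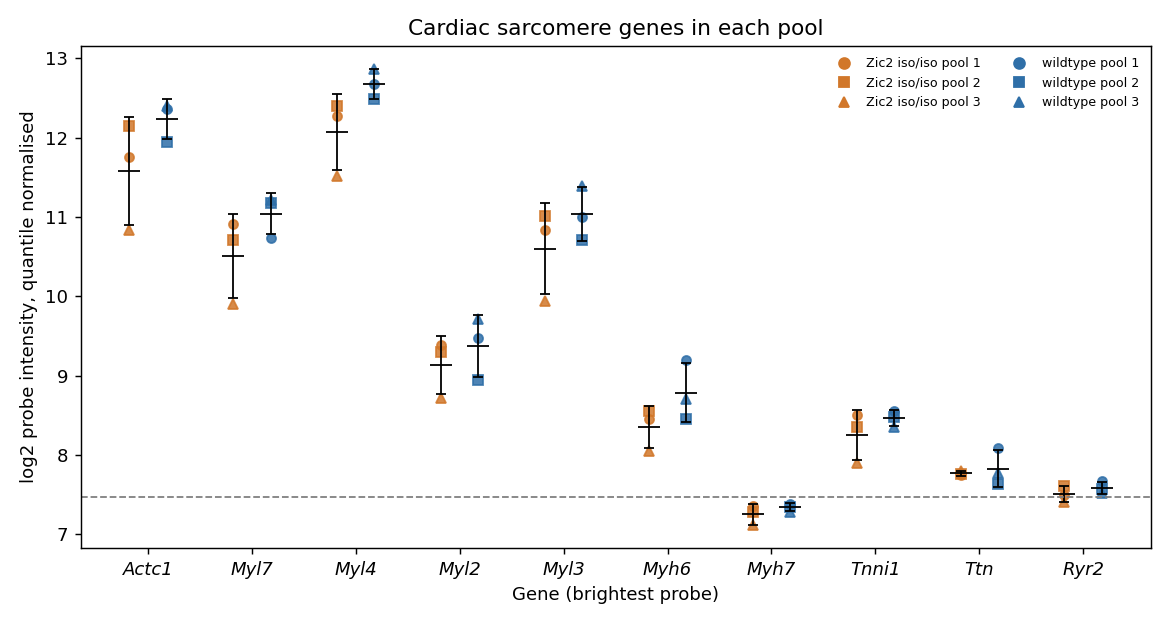
Quantile-normalised log2 intensity (y axis) of the brightest probe of each of the 10 genes, with Zic2 iso/iso pools on the left and wildtype pools on the right. Points are single pools with a marker shape for each pool number, bars give the mean and SD, with the background level dashed. In *Actc1*, Zic2 iso/iso pool 3 sits at 10.83, below the other 5 pools.

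Much of the lower level came from 1 pool. Zic2 iso/iso pool 3 was the lowest of the 6 pools in 8 of the 9 genes above background, a place it held in 16.9% of all such genes. Averaged over the 9 genes, the pools lay at −0.19, −0.13 and −0.77 from the wildtype mean in Zic2 iso/iso pools 1, 2 and 3, on the log2 scale, and at 0.08, −0.18 and 0.10 in wildtype pools 1, 2 and 3. The first and second Zic2 iso/iso pools thus stood about where wildtype pool 2 stood. Below the wildtype range were 4 of the 9 genes in Zic2 iso/iso pool 1, 2 in pool 2 and 8 in pool 3. The share of all genes above background that fell below it in each pool was not counted, so these counts are a description. Without Zic2 iso/iso pool 3 the median log2 difference of the 9 genes was −0.11, against −0.43 with all pools, and it was −0.23 without wildtype pool 1 and −0.27 without wildtype pool 3. The single genes then had log2 differences of −0.28 (*Actc1*), −0.34 (*Myl4*), −0.23 (*Myl7*), −0.11 (*Myl3*), −0.28 (*Myh6*), −0.04 (*Tnni1*) and −0.03 (*Myl2*), with limma adjusted p-values of 0.73 (*Myl4*) or more. Other pools mattered too, since *Myl2* was at −0.07 without wildtype pool 3 and *Myh6* at −0.23 without wildtype pool 1. Without Zic2 iso/iso pool 3, *Myl4* was the only one of the 9 genes with both other Zic2 iso/iso pools below every wildtype pool. That pattern was not counted over all genes either.

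**Figure D2:**
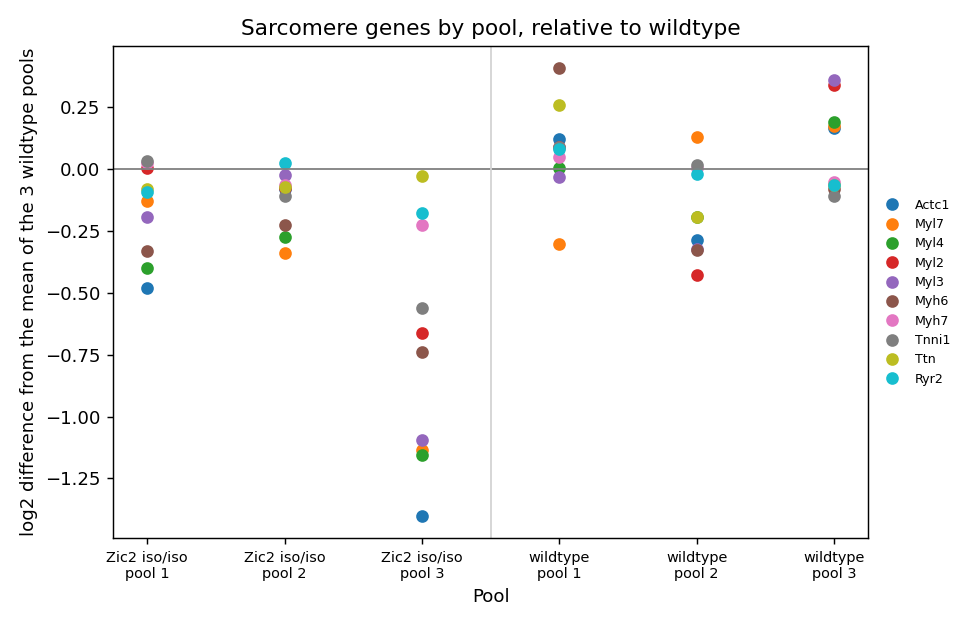
Log2 deviation of each gene from its wildtype mean in each pool, with Zic2 iso/iso pools left of wildtype pools. Zic2 iso/iso pool 3 averages −0.77 over the 9 genes above background and reaches −1.40 in *Actc1*, while Zic2 iso/iso pools 1 and 2 average −0.19 and −0.13.

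**Figure D3:**
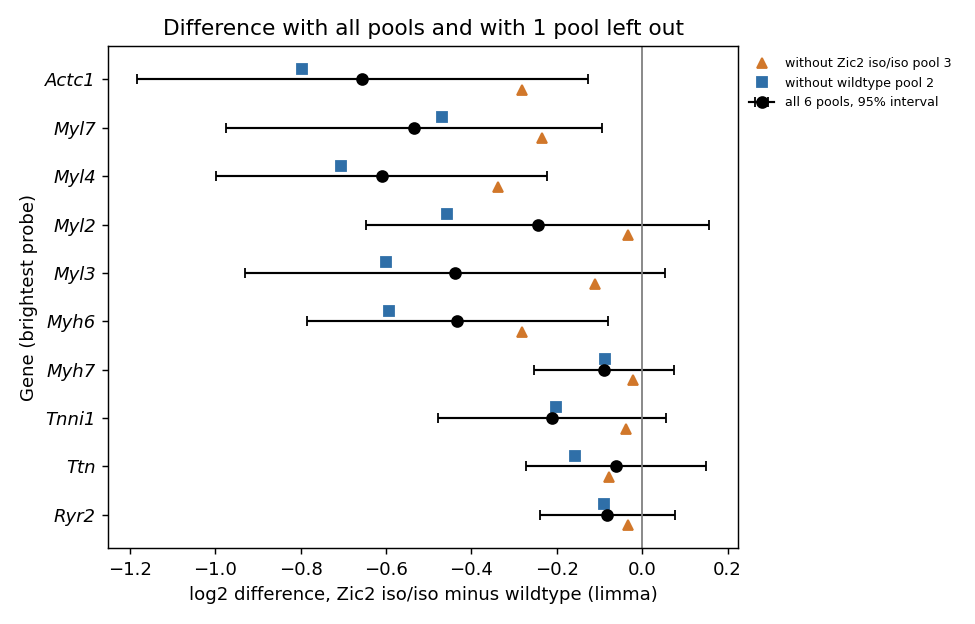
Log2 difference, Zic2 iso/iso minus wildtype, for each gene with all 6 pools (bars give the 95% interval of the limma fit) and with 1 pool left out. Leaving out Zic2 iso/iso pool 3 moves *Actc1* to −0.28, against −0.66 with all pools.

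Pools of 1 genotype also spread widely in these genes. The SD within genotypes was 0.51 for *Actc1*, 0.47 for *Myl3* and 0.42 for *Myl7*, against 0.11 for the median gene above background. For most of these genes the spread was larger in Zic2 iso/iso, which holds the low pool 3. The SD was 0.68 in Zic2 iso/iso and 0.25 in wildtype for *Actc1*, 0.53 and 0.26 for *Myl7*, 0.48 and 0.19 for *Myl4*, and 0.31 and 0.10 for *Tnni1*, while for *Myl2* it was 0.36 in Zic2 iso/iso and 0.39 in wildtype and for *Myh6* 0.27 in Zic2 iso/iso and 0.37 in wildtype. The SDs over both genotypes were larger than those of 99.9% (*Actc1* and *Myl3*) and 99.8% (*Myl7*) of genes, and *Myl4*, *Myl2* and *Myh6* exceeded 99.7%, 99.7% and 99.4%. *Ttn* (85.9%) and *Ryr2* (34.1%) were less unusual. Across the 6 pools the bright genes moved together, with a Pearson's r of 0.98 between *Actc1* and *Myl4* and of 0.95 between *Actc1* and *Myl3*. *Ttn* had an r of 0.21 with the mean of the other genes. These are descriptions over 6 pools that share the genotype difference.

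Pearson's r across probes ran from 0.993 to 0.995 between pools, and the arrays had median deposited intensities of 187.1, 163.6 and 153.9 for Zic2 iso/iso, against 164.3, 164.5 and 157.6 for wildtype. The lowest median was that of Zic2 iso/iso pool 3, and its part in the result after quantile normalisation was not tested. *Zic2* itself read 7.64, 7.57 and 8.01 in Zic2 iso/iso pools, against 8.27, 8.06 and 8.00 in wildtype pools, with a log2 difference of −0.37 ± 0.11 (SE, limma adjusted p = 0.61). Its other probe, nearer the background, had a log2 difference of 0.12 (limma adjusted p = 0.92), and since the iso allele is a stop codon, its RNA level is no check of the labels.

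Other genes of the sarcomere were followed on a list of 26, of which 21 had a probe and 17 were above background. None passed the threshold (5 were lower at an unadjusted limma p under 0.05), 15 of the 17 averaged lower in Zic2 iso/iso pools, and the median log2 difference was −0.16. Zic2 iso/iso pool 3 was the lowest pool in 11 of the 17. Over all genes above background these shares were 6.38% for the unadjusted p, 52.5% for a lower mean and 16.9% for pool 3 as the lowest. *Myl1*, the essential light chain of fast skeletal muscle that the early heart also uses, had the largest difference. It read 9.30, 9.57 and 9.02 in Zic2 iso/iso pools, against 10.04, 9.74 and 10.20 in wildtype pools, without overlap (log2 difference −0.69 ± 0.13, SE, limma adjusted p = 0.16, and 0.038 with a variance prior that follows intensity). In the other 15 of 16 alternative settings *Myl1* did not pass, with a limma adjusted p of 0.42 without Zic2 iso/iso pool 3. *Tnnc1*, the cardiac and slow troponin C that binds calcium, read 10.90, 11.00 and 10.17 in Zic2 iso/iso pools and 11.32, 11.11 and 11.46 in wildtype pools, again without overlap (−0.60 ± 0.17, limma adjusted p = 0.57). *Tcap*, the titin cap protein, was the third of the 17 with every Zic2 iso/iso pool below every wildtype pool, a pattern that 7.15% of genes above background had.

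Genes of the heart outside the sarcomere were followed on 3 lists, and no test compared them with the sarcomere genes. On the list for calcium handling and channels, 9 of 17 measured genes were above background, with a median log2 difference of −0.02. By the brightest probe none passed, also without adjustment of the limma p. Probes of *Atp2a2* disagreed, with the brightest at 0.18 (limma adjusted p = 0.89). Dimmer ones lay at −0.15 (limma adjusted p = 0.82), with every Zic2 iso/iso pool below every wildtype pool, and at −0.13. *Slc8a1*, the sodium-calcium exchanger, had the largest difference, −0.20 (limma adjusted p = 0.84), and *Pln*, *Casq2* and *Hcn4* were below background. Of 16 genes for chamber identity and maturation, 11 were above background, with a median of −0.03 and *Ankrd1*, a titin-binding repeat protein, at −0.25 (limma adjusted p = 0.90). A dimmer *Ankrd1* probe had every Zic2 iso/iso pool below every wildtype pool, with a log2 difference of −0.37 (limma adjusted p = 0.58). The brightest probe of *Myocd*, a coactivator of serum response factor, was at −0.04 with overlapping pools (limma adjusted p = 0.99). A dimmer *Myocd* probe was without overlap, at −0.22 (limma adjusted p = 0.81), and its further probes were below background. The natriuretic peptide gene *Nppa* was below background. Of 16 cardiogenic transcription factors, 13 were above background, with a median of 0.00, and *Nkx2-5*, which marks heart progenitors, had a log2 difference of −0.12 (limma adjusted p = 0.94). *Mesp1*, which marks the earlier mesoderm that gives rise to the heart, lay the other way. It read 8.63, 8.78 and 8.66 in Zic2 iso/iso pools, against 8.34, 8.38 and 8.28 in wildtype pools, without overlap (log2 difference 0.35, limma adjusted p = 0.16).

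**Figure D4:**
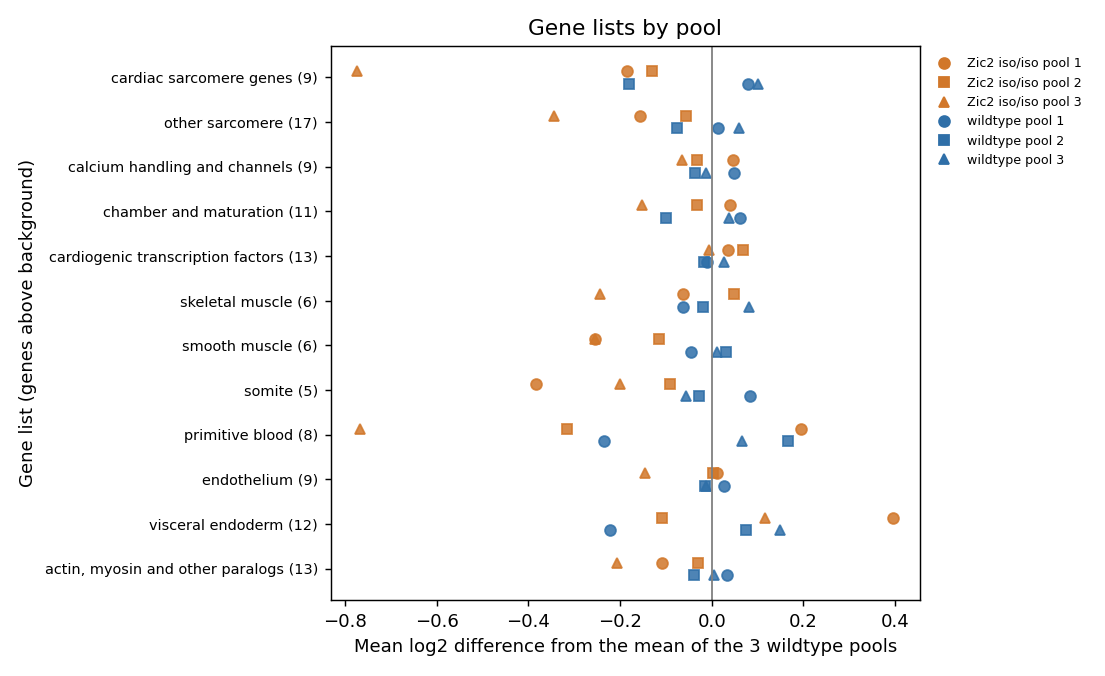
Mean log2 deviation from the wildtype mean over the genes of each list above background, by pool, with Zic2 iso/iso pools above wildtype pools in each row and the number of genes in brackets. The cardiac sarcomere genes lie at −0.77 in Zic2 iso/iso pool 3, and the 13 transcription factors near 0 in all pools. Primitive blood genes average −0.77 in Zic2 iso/iso pool 3 and 0.20 in pool 1, set largely by *Hbb-bh1* and *Hba-x*.

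Genes of other muscle were looked at because several actins and light chains are close relatives of the members, and cross-hybridisation between them could not be checked without probe sequences. *Acta1*, skeletal alpha-actin, read 7.98, 8.39 and 7.57 in Zic2 iso/iso pools, against 8.71, 8.53 and 8.89 in wildtype pools (log2 difference −0.73 ± 0.16, SE, limma adjusted p = 0.26). Pools did not overlap, and the limma adjusted p was 0.037 with a variance prior that follows intensity and 0.046 without Zic2 iso/iso pool 2. In the other 14 of 16 alternative settings *Acta1* did not pass, with a limma adjusted p of 0.46 without Zic2 iso/iso pool 3. *Acta2*, smooth muscle actin, which the early heart tube also makes, read 12.89, 13.15 and 12.59 in Zic2 iso/iso pools and 13.38, 13.23 and 13.41 in wildtype pools (−0.46 ± 0.11, SE, limma adjusted p = 0.41). A dimmer *Acta2* probe was also without overlap, with a log2 difference of −0.56 ± 0.10 (SE, limma adjusted p = 0.088). Further *Acta2* probes were at −0.31 and −0.27 above background, and at −0.05 and 0.05 below it. Of the 6 smooth muscle genes above background 4 did not overlap and had lower values in Zic2 iso/iso, and none passed (3 were lower at an unadjusted limma p under 0.05). Over all genes above background 7.15% did not overlap and were lower, and 6.38% were lower at that p. Of the 6 skeletal muscle genes above background 2 averaged lower in Zic2 iso/iso pools, none passed, and the median log2 difference was 0.00. *Tnnt1*, slow skeletal troponin T, lay opposite to *Acta1*, at 9.30, 9.55 and 9.39 in Zic2 iso/iso pools and 9.12, 9.12 and 9.34 in wildtype pools (log2 difference 0.22, limma adjusted p = 0.76). The skeletal muscle regulators *Myod1*, *Myf5* and *Myog* were below background, and of 13 paralogs above background (actins, myosins, tropomyosins and ryanodine receptors) none passed, with a median log2 difference of −0.06. Of these, 4 were lower without overlap (*Acta1*, *Acta2*, *Actg2* and *Myl12a*). At an unadjusted limma p under 0.05, 3 were lower (*Acta1*, *Acta2* and *Myl12a*). The lists share genes, since *Acta1* is also counted in skeletal muscle, and *Acta2* and *Actg2* in smooth muscle.

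Markers of other tissues moved between the same pools, and their part in the sarcomere values was not tested. Of 11 measured primitive blood genes 8 were above background, *Gata1*, *Nfe2* and *Slc4a1* were not, and all 8 averaged lower in Zic2 iso/iso pools with a median log2 difference of −0.09. The embryonic globin gene *Hbb-bh1* read 12.87, 10.75 and 9.04 in Zic2 iso/iso pools, against 11.55, 11.74 and 12.17 in wildtype pools (limma adjusted p = 0.93). The lowest pool was Zic2 iso/iso pool 3 here too, but Zic2 iso/iso pool 1 was the highest of all 6, which it was in none of the 9 cardiac sarcomere genes above background, though it was for *Tpm1*, *Myom1* and *Ldb3* of the other sarcomere list. *Hba-x* had the same highest and lowest pools, at 10.58, 8.65 and 7.49 in Zic2 iso/iso pools, against 9.41, 9.76 and 9.95 in wildtype pools. *Hba-a1*, the brightest blood gene, did not, at 11.98, 12.36 and 12.52 against 11.77, 13.605 and 12.63. Zic2 iso/iso pool 3 was lowest in 6 of the 8, in *Tal1* only by a little (8.498, against 8.52 in wildtype pool 1). Sums were taken after quantile normalisation, and bright globin genes weigh most in that of blood. The summed intensity of all 11 measured blood genes was 8167 to 14880 in Zic2 iso/iso pools and 8817 to 18530 in wildtype pools. That of the members was 14130, 15610 and 8165 in Zic2 iso/iso pools 1, 2 and 3, against 17890, 15430 and 20090 in wildtype pools.

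Of 12 somite genes 5 were above background, with a median log2 difference of −0.28 and none past the threshold (3 lower at an unadjusted limma p under 0.05, beside 6.38% of all genes above background). *Tcf15*, a factor of the somite epithelium, had the largest difference, −0.52 (limma adjusted p = 0.27). The summed intensity of all 12 genes after quantile normalisation, those below background included, was 3495 to 4122 in Zic2 iso/iso pools. In wildtype pools it was 4177 to 4880. Zic2 iso/iso pool 1, not pool 3, had the lowest somite sum. Of 10 endothelial genes 9 were above background, with 5 of the 9 lower and a median log2 difference of −0.07. The sums over all 10 overlapped, 7020 to 7971 in Zic2 iso/iso pools and 7604 to 7919 in wildtype pools. *Emcn*, a surface protein of endothelium, was at −0.39 with every Zic2 iso/iso pool below every wildtype pool (limma adjusted p = 0.69). *Flt1*, a VEGF receptor, was at 0.28 with every Zic2 iso/iso pool above every wildtype pool (limma adjusted p = 0.50). All 12 visceral endoderm genes were above background. Their sums also overlapped, 56830 to 82760 in Zic2 iso/iso pools and 52200 to 68280 in wildtype pools, and the median log2 difference was 0.12. *Apob*, an apolipoprotein of yolk sac endoderm, had the largest difference, 0.50, with every Zic2 iso/iso pool above every wildtype pool (limma adjusted p = 0.15).

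The genes whose 6 pools most resembled the mean profile of the 9 sarcomere genes were searched among the other 10430 genes above background. The 10 with the highest Pearson's r were *Rapgef6* (0.986), *Tnnc1* (0.985), *Dtymk* (0.983), *Bcar1* (0.982), *Atp7a* (0.977), *Actn2* (0.976), *Asb2* (0.970), *Timeless* (0.970), *Ccdc115* (0.969) and *Cog4* (0.968). Of these, *Tnnc1* and *Actn2*, the alpha-actinin of the Z-disc, were on the sarcomere list. *Asb2*, part of a ubiquitin ligase that acts on filamin in muscle, read 8.43, 8.77 and 7.85 in Zic2 iso/iso pools, against 9.11, 8.55 and 9.03 in wildtype pools, with Zic2 iso/iso pool 3 again lowest. *Dtymk*, which makes thymidine nucleotides, was also lowest in Zic2 iso/iso pool 3, within a narrow range, with a log2 difference of −0.11 ± 0.07 (SE). With 6 pools, a high r can arise in many of 10430 genes, and it is given as a description.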

How the data were processed

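RNA from 6 pools of whole embryos was measured, and genotype and replicate number came from the submitters' labels. The authors deposited linear intensities, with 1 value a probe in each pool. Their lowest values (104 to 122) and differing medians showed no background subtraction or normalisation between arrays, so they precede the variance stabilising step that the methods describe. Values were floored at 1, converted to log2 and quantile normalised, and all 45281 probes were fitted with limma 3.58.1 (lmFit, eBayes, R 4.3.3) the difference being Zic2 iso/iso minus wildtype. Benjamini-Hochberg adjustment ran over all probes, with a threshold of 0.05. The methods treat the pools as independent biological replicates; slide and scan are not given in the sources used here.

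Symbols came from the array's annotation, updated through RefSeq: 34885 probes carry 1 symbol, 18 several and 10378 none. The brightest probe over all 6 pools stands for a gene. Promoter windows came from RefSeq (GRCm38.p6). Named were all members, *Zic2*, list genes past the threshold, the gene with the largest difference in each list, and the 10 most alike profiles. Others (*Tnnc1*, *Tcap*, *Acta2*, *Actg2*, *Atp2a2*, *Nkx2-5*, *Asb2*, *Dtymk*, *Tnnt1*, *Flt1*, *Myl12a*, *Myocd*, *Tpm1*, *Myom1*, *Ldb3*, *Hba-x*, *Hba-a1*, *Tal1* and genes below background) were picked once their values were known. The members and lists were chosen with earlier results of these data known. List genes without a matching probe were not analysed here. The fit was tested on simulated data. Alternatives covered normalisation, background correction, the variance prior, dim probes, array weights, the mean of a gene's probes, a replicate block and each pool left out.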

Additional observations from a re-analysis of the deposited data

How the results depend on the processing

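No cardiac sarcomere gene passed the threshold under any of the 16 alternatives. Among the settings with all pools, the median log2 difference of the 9 genes above background was between −0.24 (mean of a gene's probes) and −0.48 (variance stabilising normalisation). With 1 pool left out it ran from −0.54 to −0.11, the last without Zic2 iso/iso pool 3, and it was −0.23 without wildtype pool 1 and −0.27 without wildtype pool 3. *Ttn* changed sign without normalisation between arrays (0.021) and without wildtype pool 1 (0.068), and *Myh7* has no value when dim probes are left out. Of the other list genes, 2 passed (*Myl1* and *Acta1*) with a variance prior that follows intensity, and with 1 pool left out 0 to 2 passed. *Zic2* kept its direction and did not pass in any alternative. Over all probes the count past the threshold was 20, against 4 without normalisation (3 lower, 1 higher), 11 with median centring, 24 with normexp background correction (19 lower, 5 higher), 31 with the prior that follows intensity, 12 with the mean of a gene's probes (of 19057 genes) and 14 to 29 with 1 pool left out. Same-numbered pools did not deviate together (r of −0.16, −0.04 and −0.15 over 10439 genes), which does not show whether they share litters or a batch. The paper states that littermates served as controls, and whether same-numbered pools share litters is not stated. With the replicate block, 17 probes passed, no member did, and the median of the members was −0.43. The number of arrays, 3 for each genotype, limits the precision, and genes near the background level, *Ttn*, *Ryr2* and *Myh7* among them, give little information.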
